A study of Mus musculus with 6 samples.

Results

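The 8 genes Pcp2, Ppp1r17, Car8, Slc1a6, Calb1, Itpr1, Rgs8 and Fam107b were followed among the 38087 genes measured in mouse brain RNA. All are strongly expressed in Purkinje cells, the neurons that carry the output of the cerebellar cortex. They were selected on measured values of the same 6 libraries, in which Purkinje cell genes had stood out in 1 library and Pcp2 and Ppp1r17 had differed between the group means. Their own levels and group differences are therefore given as a description. From general knowledge of where each gene is expressed, the 8 were divided into 4 that are largely restricted to Purkinje cells within the brain (Pcp2, Ppp1r17, Car8 and Slc1a6) and 4 that forebrain neurons also express (Calb1, Itpr1, Rgs8 and Fam107b). This split, too, was made with earlier results of these data known.

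RNA was sequenced from the brains of 3 wild-type (WT) mice and 3 mice heterozygous for loss of Shugoshin-1 (Sgo1-/+), a protein that protects the cohesion of sister chromatids. All 6 mice were untreated, 24 months old and of C57BL6 background, and each gave 1 library. The study's methods describe the tissue as cerebrum, with cortex and hippocampus, and say that olfactory bulb, cerebellum and medulla were left out. The mice behind WT replicate 1 and Sgo1-/+ replicate 2 were male and the remaining 4 female. Sequencing run 258 held every WT library and run 259 every Sgo1-/+ library, which means that genotype and run cannot be told apart.

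Purkinje cells receive excitatory input from the parallel fibres of cerebellar granule cells and from climbing fibres, and they inhibit the deep cerebellar nuclei. At the parallel fibre synapse, glutamate acts in part on metabotropic receptors, which through Gq and phospholipase C releases calcium from internal stores by way of the inositol trisphosphate receptor. Several of the 8 genes act in this chain. Itpr1 encodes the inositol trisphosphate receptor itself, Car8 encodes a catalytically inactive carbonic anhydrase relative that binds this receptor, Calb1 encodes the calcium buffer calbindin, and Slc1a6 encodes the glutamate transporter EAAT4, which clears the transmitter around Purkinje cell spines. Pcp2 and Rgs8 encode regulators of G protein signalling, and Ppp1r17 encodes G-substrate, a phosphatase inhibitor that cGMP-dependent protein kinase phosphorylates. Fam107b encodes a small protein related to the actin-binding protein of Fam107a.

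Total estimated counts (the reads assigned to genes, not always whole because shared reads are divided) were between 11123917 and 12505561 per library, and levels are given as normalized counts, that is, estimated counts divided by the library's size after TMM scaling and brought to the mean size of the 6 libraries. As the libraries carried no molecular identifiers that the labels mention, limits drawn from this depth cover counting error only. The female-specific and male-specific transcripts Xist and Ddx3y matched the labelled sex in all 6 libraries, whose columns were assigned to replicates by the number in their names. Sgo1 itself had 0 to 7 estimated counts per library, too few to check the genotype. WT replicate 1 stood apart from the other 5 libraries. All 9 genes listed as markers of the brain stem and all 8 of cerebellar granule cells were highest there, and all 7 of the striatum were lowest there. Of the 16337 genes tested for genotype, which include 3 of the 9 brain stem genes, 28.1% were highest and 30.2% lowest in WT replicate 1. The lists were chosen with earlier results of these data known.

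The promoter sequences of Pcp2, Slc1a6 and Rgs8 are shown because they are the genes of the set for which a start site near the deposited gene's start was listed. Their leads in WT replicate 1 over the median of the other 5 libraries also differed. They were 45.7-fold for Pcp2, 7.39-fold for Slc1a6 and 3.26-fold for Rgs8. Each is the 250 bases before the start site, 5′ to 3′ on the gene's strand, from RefSeq on GRCm38.p6. They lie at chr8:3625548-3625797 on the minus strand for Pcp2, at chr10:78780246-78780495 on the plus strand for Slc1a6 and at chr1:153652787-153653036 on the plus strand for Rgs8. Capitals mark matches, on either strand, to the motifs described after the sequences.
Pcp2: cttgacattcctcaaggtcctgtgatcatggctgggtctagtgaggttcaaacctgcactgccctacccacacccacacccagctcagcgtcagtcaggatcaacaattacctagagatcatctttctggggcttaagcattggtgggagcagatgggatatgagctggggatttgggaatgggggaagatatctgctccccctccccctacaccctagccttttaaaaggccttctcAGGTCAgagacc
Slc1a6: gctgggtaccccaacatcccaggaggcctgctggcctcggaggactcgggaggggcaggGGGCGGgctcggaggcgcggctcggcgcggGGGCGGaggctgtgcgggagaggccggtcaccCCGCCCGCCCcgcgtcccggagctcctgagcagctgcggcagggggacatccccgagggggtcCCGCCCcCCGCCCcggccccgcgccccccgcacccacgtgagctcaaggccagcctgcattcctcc
Rgs8: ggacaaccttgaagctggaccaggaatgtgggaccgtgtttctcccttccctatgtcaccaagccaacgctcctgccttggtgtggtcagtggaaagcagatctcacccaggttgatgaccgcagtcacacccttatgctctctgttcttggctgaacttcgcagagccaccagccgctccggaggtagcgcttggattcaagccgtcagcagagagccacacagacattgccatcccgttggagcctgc

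The letters searched were AGGTCA, a nuclear receptor half-site, TATAAA, the TATA box, GGGCGG, the GC box, and the EBF site. Pcp2 held 1 AGGTCA, from 12 to 7 bases before the start, a match that 14% of the 32851 windows in the table held. Slc1a6 was 78.8% G and C, against a median of 52.4% over all windows, and held 6 GC boxes, of which the third and the fourth share letters. A GC box was present in 32.7% of all windows. None of the 4 motifs was found in the Rgs8 window, and the TATA box and the EBF site, present in 12.4% and 0.779% of all windows, were found in none of these 3 windows. These matches describe the letters and are not evidence of binding.

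WT replicate 1 held the highest level of every one of the 8 genes. By the ratio of its normalized count to the median of the other 5 libraries (counts under 3 set to 3), the increase ranged from 1.59-fold for Itpr1 to 45.7-fold for Pcp2. The 4 Purkinje-restricted genes each lay at least 5.88-fold above the highest of the other 5 libraries, and the 4 shared genes between 1.47-fold and 5.29-fold above it. Being highest in WT replicate 1 was common, since 28.1% of the 16337 genes tested for genotype were highest there and 30.2% were lowest there. A lead of at least 2-fold over every other library was found for 1.7% of the tested genes and for 7 of the 8 described here, and a lead of at least 4-fold for 0.386% of the tested genes and for 5 of the 8. All 8 passed the filter on low counts. Because the set was chosen with this library's values known, these counts describe it and do not test it.

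**Figure D1:**
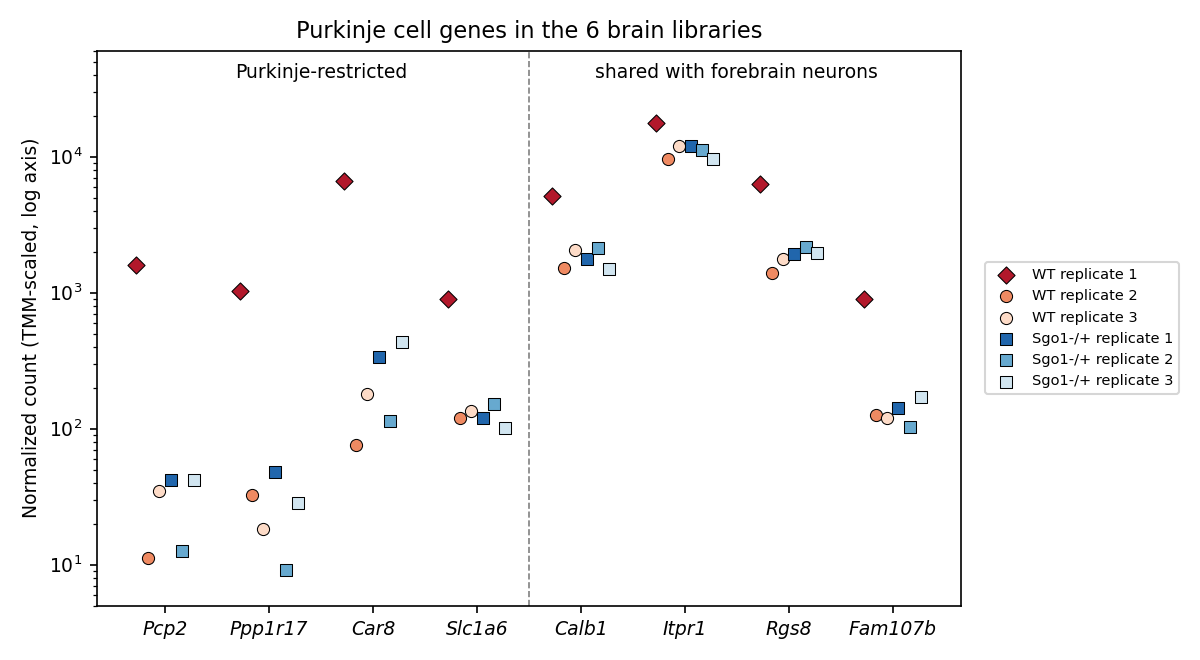
Normalized counts (log axis) of the 8 genes in each of the 6 libraries, 1 point per library, with WT as diamonds and circles and Sgo1-/+ as squares. WT replicate 1 (dark red diamond) is the highest point for each gene, far above the rest for Pcp2, Ppp1r17 and Car8, and closest to them for Itpr1.

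Pcp2 (ENSMUSG00000004630, mm10 chr8:3623371-3625545, minus strand) encodes Purkinje cell protein 2, a modulator of Gi and Go proteins. Across the WT libraries, in replicate order, it had 1596, 11.1 and 34.9 normalized counts, and across the Sgo1-/+ libraries 42.0, 12.6 and 42.0, the order used for each gene here. WT replicate 1 alone held 91.8% of the sum over the libraries, and the other 2 WT libraries fell within or just below the range of the Sgo1-/+ libraries. The gene overlaps Pet100 (listed as 2900053A13Rik) on the opposite strand, and the TruSeq V2 kit named in the labels does not mark strand, so where they overlap the reads of these 2 genes cannot be told apart. Pet100 had 269 normalized counts in WT replicate 1 and 125 to 171 in the other libraries.

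Ppp1r17 (ENSMUSG00000002930, chr6:56017515-56032688, plus strand) had normalized counts of 1022, 32.4 and 18.3 in WT and 47.7, 9.12 and 28.6 in Sgo1-/+. WT replicate 1 held 88.3% of the sum and was 21.4-fold above the next library, Sgo1-/+ replicate 1. Without it, both groups covered the same low range, and the lowest library was a Sgo1-/+ one.

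Car8 (ENSMUSG00000041261, chr4:8143367-8239041, minus strand) had 6568, 76.0 and 179 normalized counts in WT and 335, 113 and 437 in Sgo1-/+. It was 36.7-fold above the median of the other libraries in WT replicate 1, which held 85.2% of the sum. Among the other 5 libraries its level varied 5.75-fold, the widest spread of the 8 genes, with WT replicate 2 lowest and Sgo1-/+ replicate 3 highest. Pcp2 was likewise lowest in WT replicate 2 and next lowest in Sgo1-/+ replicate 2. The ratio of Pcp2 to Car8 was 0.243 in WT replicate 1 and lay between 0.0960 and 0.195 in the other 5.

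Slc1a6 (ENSMUSG00000005357, chr10:78780496-78814825, plus strand) had 892, 119 and 135 normalized counts in WT and 121, 152 and 102 in Sgo1-/+. It differed from the other 3 restricted genes in a steadier level outside WT replicate 1, with only 1.49-fold between the highest and the lowest of the other 5 libraries, against 3.78-fold for Pcp2 and 5.23-fold for Ppp1r17. Its lead in WT replicate 1 was 7.39-fold over their median, smaller than the leads of the other restricted genes.

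Of the shared genes, Fam107b (ENSMUSG00000026655, chr2:3613758-3782142, plus strand) behaved most like Slc1a6. Its normalized counts were 901, 126 and 121 in WT and 143, 102 and 170.4 in Sgo1-/+. WT replicate 1 was 7.17-fold above the median of the other 5 libraries, and the other WT libraries lay within the Sgo1-/+ range.

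Rgs8 (ENSMUSG00000042671, chr1:153653025-153697667, plus strand), which speeds the shut-off of Gi and Gq signals, had 6322, 1392 and 1756 normalized counts in WT and 1939, 2171 and 1967 in Sgo1-/+. WT replicate 1 was 3.26-fold above the median of the others. Here the remaining 2 WT libraries were the lowest of all, below each Sgo1-/+ library. How common this order was among all genes was not counted.

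Calb1 (ENSMUSG00000028222, chr4:15881264-15908064, plus strand) had 5126, 1505 and 2062 normalized counts in WT and 1781, 2145 and 1485 in Sgo1-/+. Itpr1 (ENSMUSG00000030102, chr6:108213118-108551109, plus strand) had 17717.5, 9523 and 12049 in WT and 12046, 11161 and 9586 in Sgo1-/+. WT replicate 1 was 2.88-fold above the median of the others for Calb1 and 1.59-fold for Itpr1, and held 36.3% and 24.6% of the sums. Outside this library the 2 genes varied least of the 8, by 1.44-fold for Calb1 and 1.27-fold for Itpr1, and the groups overlapped.

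Set side by side within each library, the restricted and the shared genes separated only in WT replicate 1. There the median log2 ratio to the median of the other 5 libraries was 5.18 for the 4 restricted genes and 1.61 for the 4 shared genes, a difference of 3.56, against a median of -0.0017 over all tested genes. The same difference was -0.65 in WT replicate 2, -0.52 in WT replicate 3 and, across the Sgo1-/+ libraries, 0.46, -1.68 and 0.20. Because the genes and their split were chosen with earlier results of these data known, these differences are a description and were not tested. The single genes met at the edge of the 2 classes, since the lowest restricted gene, Slc1a6, had a log2 ratio of 2.89 and the highest shared gene, Fam107b, one of 2.84. By rank among the 16337 tested genes, Pcp2 stood 7th from the top in this ratio, Car8 10th and Ppp1r17 11th, followed by Slc1a6 as 65th, Fam107b as 69th, Rgs8 as 221st, Calb1 as 313th and Itpr1 as 1664th.

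**Figure D2:**
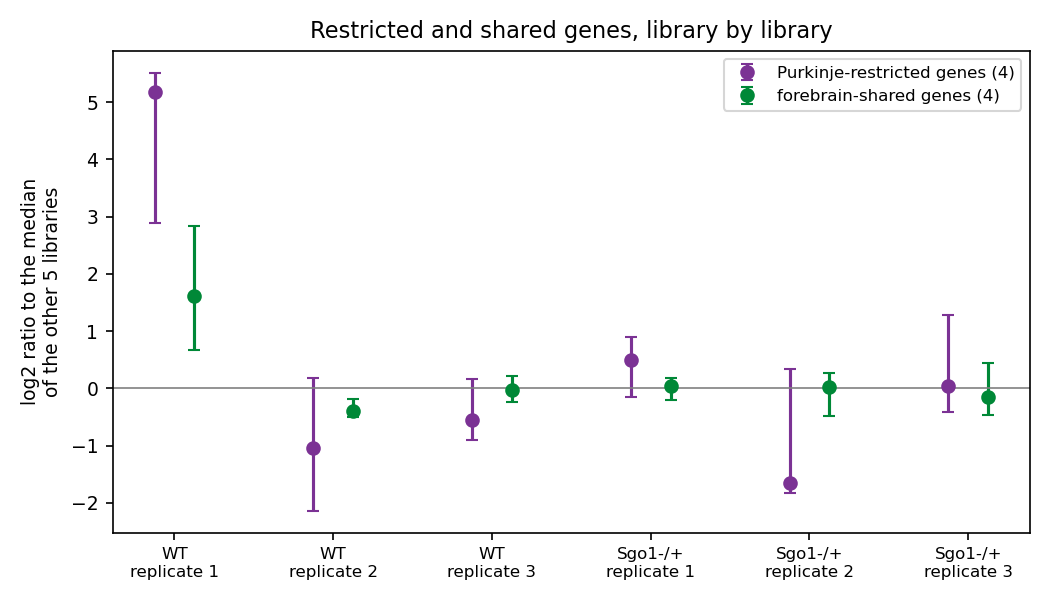
Median log2 ratio of the 4 Purkinje-restricted genes (purple) and the 4 forebrain-shared genes (green) in each library, against the median of the other 5 libraries, with bars from the lowest to the highest gene. The medians are 5.18 and 1.61 in WT replicate 1, and in the other 5 libraries the bars of the 2 classes overlap.

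In the other 5 libraries the restricted genes spread more than the shared genes. Their medians ran from -1.65 in Sgo1-/+ replicate 2 to 0.50 in Sgo1-/+ replicate 1, an SD of 0.854 over the 5 libraries, while those of the shared genes ran from -0.40 in WT replicate 2 to 0.045 in Sgo1-/+ replicate 1, an SD of 0.182. Car8 and Pcp2 were higher in Sgo1-/+ replicates 1 and 3 and in WT replicate 3 than in WT replicate 2 and Sgo1-/+ replicate 2. The granule cell gene Gabra6, a GABA-A receptor subunit, reached 60.7, 0 and 72.6 normalized counts across the Sgo1-/+ libraries, 34.5 in WT replicate 3 and 3.81 in WT replicate 2. For 3 of the 8 listed granule cell genes (Gabra6, Cbln3 and Fat2) the lowest of these libraries were those lowest for Car8 and Pcp2, whereas 4 others (Cbln1, Zic1, Zic2 and Zic4) were highest of the 5 in WT replicate 2, so the list did not follow Car8 and Pcp2 as a whole. A count of 0 at this depth allows up to 3 counts. In bulk RNA, more cells of a type and more RNA per cell cannot be told apart.

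The lead of WT replicate 1 looked different as an amount than as a ratio. Per kb of exon, which allows levels to be compared between genes, the level of the shared genes in the other 5 libraries was 609 normalized counts per kb for Itpr1 (median, range 519.8 to 658), 368 for Calb1 (306 to 443), 201 for Rgs8 (144 to 225) and 29.0 for Fam107b (23.6 to 39.4). For the restricted genes it was 56.1 for Slc1a6 (47.2 to 70.5), 46.5 for Car8 (19.7 to 114), 19.1 for Pcp2 (6.08 to 23.0) and 16.3 for Ppp1r17 (5.19 to 27.1). In this order Itpr1, Calb1 and Rgs8 were separate from each other and from the rest, while the range of Car8 overlapped those of Slc1a6, Fam107b, Pcp2 and Ppp1r17, and that of Ppp1r17 also overlapped those of Fam107b and Pcp2. By this level Fam107b lay among the restricted genes.

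In WT replicate 1 the order was another. Car8 was highest with 1705 normalized counts per kb, followed by Calb1 with 1058, Itpr1 with 967, Pcp2 with 873, Rgs8 with 656, Ppp1r17 with 582, Slc1a6 with 415 and Fam107b with 208. The excess over the median of the other 5 libraries was 1658 normalized counts per kb for Car8, 854 for Pcp2, 565 for Ppp1r17 and 359 for Slc1a6, and 690.2 for Calb1, 455 for Rgs8, 358 for Itpr1 and 179 for Fam107b. The excesses of the 2 classes therefore overlapped, and Itpr1, with the smallest fold of the 8, had an excess per kb of exon close to that of Slc1a6, whose fold was 7.39. With the length of the longest coding transcript in place of all exons, an alternative chosen after seeing the data, Itpr1 rather than Car8 had the highest level in WT replicate 1, at 1795 against 1705 normalized counts per kb, and the excess of Itpr1 was 664 against 380.2 for Slc1a6.

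**Figure D3:**
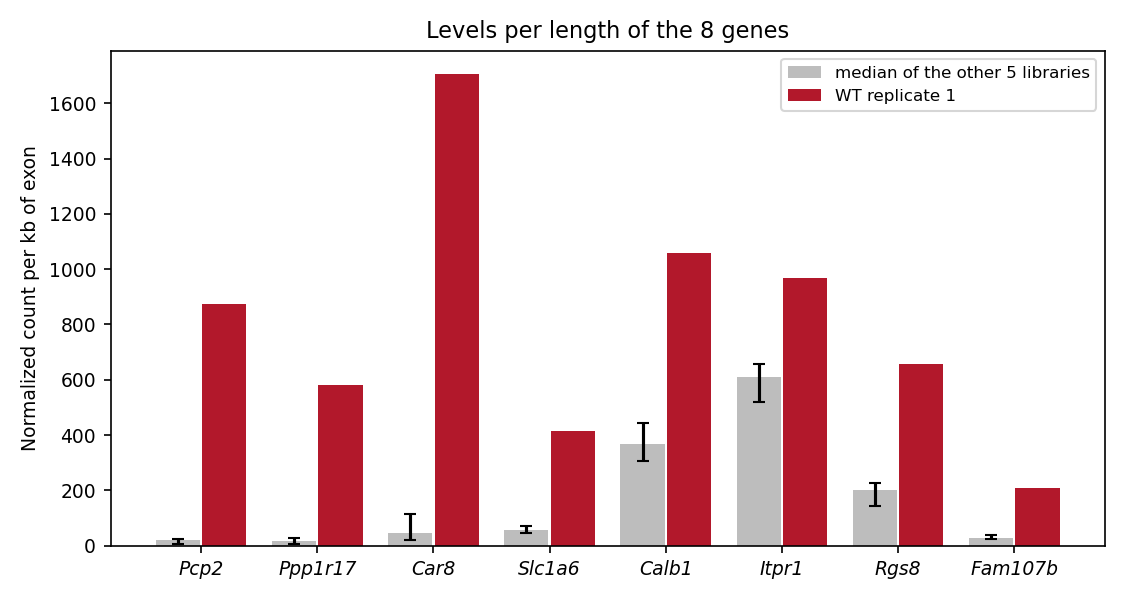
Normalized count per kb of exon for each gene, as the median of the other 5 libraries (grey, bars from the lowest to the highest of them) and in WT replicate 1 (red). Car8 stands at 46.5 and 1705 and Itpr1 at 609 and 967, and Slc1a6 at 56.1 and 415. Lengths are all exons, and with the longest coding transcript the excess of Itpr1 is 664 and that of Slc1a6 380.2.

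Most other genes known from Purkinje cells were also highest in WT replicate 1. Of 12 listed, 10 were highest there and 1 was lowest, against 28.1% and 30.2% of the tested genes, with a median log2 ratio of 2.36. A lead of at least 4-fold over every other library was found for 6 of the 12, against 0.386% of the tested genes. The list was chosen with earlier results of these data known, so these counts describe it. Lhx1, a transcription factor of developing and adult Purkinje cells, had 358 normalized counts against 4.25 to 17.2 in the other libraries, and Arhgef33 had 735 against 16.2 to 48.3. The transcription factors Ebf2 and Lhx5 had 109.7 against 6.48 to 15.1 and 95.4 against 4.06 to 19.1. The transcription factor Skor2 had 53.6 against 0 to 3.97, too few counts to be tested for genotype. The 2 exceptions were Foxp2, which had 188 normalized counts against 351 to 551 and was lowest in WT replicate 1, and Pcp4, a calmodulin regulator, which had 3651 within a range of 2832 to 4629. Both are also expressed in the striatum, and whether this bears on their levels here was not tested.

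The wider pathway of Gq and calcium signalling went both ways. Of its 21 listed genes 10 were highest and 9 lowest in WT replicate 1, against 28.1% and 30.2% of the tested genes. Their median log2 ratio was -0.089, and none reached 4-fold over the next library. Paralogs differed within this list. Homer3, a postsynaptic scaffold of Purkinje cell spines, had 1686 normalized counts in WT replicate 1 against 234 to 506 in the other libraries, while Homer1, the related scaffold of forebrain synapses, was lowest there, with 620.1 against 1441 to 2869.

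Close relatives of the 8 genes went both ways. Of 15 relatives 4 were highest and 7 lowest in WT replicate 1, where 28.1% and 30.2% of all tested genes were highest and lowest, with a median log2 ratio of -0.080 and none at 4-fold. Beside Slc1a6, the astrocyte transporter Slc1a2 had 14711 normalized counts against 25090 to 28829 in the other libraries, where WT replicate 1 was thus lowest. Beside Rgs8, the forebrain regulator Rgs4 had 1223 against 3166 to 7139. Beside Calb1, Calb2, which encodes the calretinin of granule cells and interneurons, had 2346 against 236 to 1229, and beside Itpr1, Itpr3 had 319 against 83.8 to 160. Against the median of the other libraries, the leads of Calb2 and Itpr3, 3.31-fold and 2.96-fold, were larger than those of Calb1 and Itpr1.

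**Figure D4:**
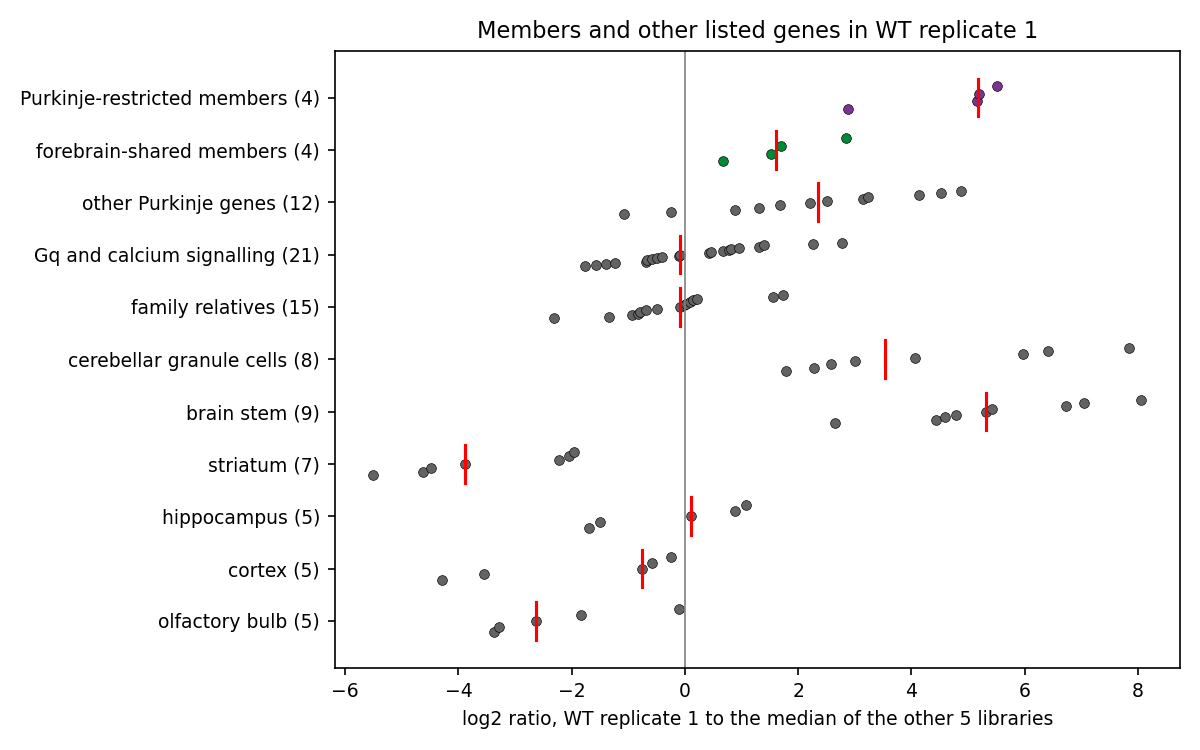
Log2 ratio of WT replicate 1 to the median of the other 5 libraries for each gene of each list (points, number of genes in brackets), with red lines at the list medians. The medians are 5.18 for the restricted genes, 1.61 for the shared genes, 3.53 for granule cells, 5.31 for brain stem and -3.88 for striatum.

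Markers of other brain regions also stood out in WT replicate 1. The summed normalized count of the 8 granule cell genes was 16599 there and 511 to 1529 in the other libraries, with Gabra6 at 2168, Fat2 at 2526, Cbln3 at 4644, Cbln1 at 2543 and Cdh15 at 197, and the defining markers Gabra6 and Fat2 were at 0 in Sgo1-/+ replicate 2. The 9 brain stem genes summed to 4328 against 27.7 to 66.5, led by the glycine transporter gene Slc6a5 with 2653 against 1.01 to 40.6, and by Hoxb5, Hoxa5, Hoxc4 and Glra1. The 7 striatal genes summed to 1648 against 8873 to 19787 and the 5 cortical genes to 2422 against 3132 to 4599. The 5 hippocampal genes had no common direction there, with 2 of 5 lowest and a median log2 ratio of 0.11, although their sum was 1289 against 2336 to 2891, of which Wfs1 made up 673 against 1084 to 2374. The cortical projection neuron gene Fezf2 was at 8.64 in WT replicate 1 and at 128 to 211 elsewhere. The 5 olfactory bulb genes summed to 172 in WT replicate 1, 1802 and 1422 in WT replicates 2 and 3 and 99.4 to 818 in Sgo1-/+. What part these regions have in the levels of the 8 genes was not tested. The label of the set held only for WT replicate 1 in the sense that Purkinje-restricted genes were abundant there, with a summed 10079 normalized counts for the 4 against 239 to 610 in the other libraries.

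The genes whose profiles over the 6 libraries lay nearest to each of the 8 were found by the Euclidean distance between log2(normalized count + 1) values, each centred on the gene's mean. For Pcp2 the nearest were Car8 (distance 1.10), En2 (1.66) and Cbln3 (1.92), and for Car8 they were En2 (0.893), Pcp2 (1.10) and Kcng4 (1.62). En2, a transcription factor of the midbrain and cerebellum, had 542 normalized counts in WT replicate 1 and 9.52 to 43.8 in the others. For Ppp1r17 they were Tfap2b (1.01), Il20rb (1.13) and Arhgef33 (1.46), and for Slc1a6 they included Zfp521 (0.63) and Mapk12 (0.697). For the shared genes the nearest was Pld5 for Calb1 (0.246), Slc4a4 for Itpr1 (0.17), Sbk1 for Rgs8 (0.211) and Trim67 for Fam107b (0.44). The restricted genes had among their neighbours Car8 and Pcp2, themselves of the 8, and Cbln3 and Arhgef33, which are on lists of cerebellar genes. None of the 12 nearest to the shared genes was on a list. Because the 8 genes and the lists were chosen with earlier results of these data known, this difference is a description and was not tested. With 6 points, of which 1 is far from the rest, these distances are set largely by the size of the lead in WT replicate 1.

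The comparison of Sgo1-/+ with WT asks which genes change in the brain when 1 copy of Sgo1 is lost. Over all 6 libraries, all 8 genes had lower means in Sgo1-/+. Pcp2 had 547 ± 908 normalized counts in WT and 32.2 ± 17.0 in Sgo1-/+ (SD, n = 3 each), Ppp1r17 358 ± 576 and 28.5 ± 19.3, and Car8 2274 ± 3719 and 295 ± 166. In each of these the SD of the WT group exceeded its mean, as it also did for Slc1a6, with 382 ± 442 and 125 ± 25.4, and for Fam107b, with 382 ± 449 and 138 ± 34.4. For Calb1 the values were 2898 ± 1950 and 1804 ± 330.5, for Rgs8 3157 ± 2747 and 2026 ± 126, and for Itpr1 13097 ± 4196 and 10931 ± 1246. The groups overlapped for all 8 genes, as they did for most tested genes, of which 6.85% had groups that did not overlap.

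By the quasi-likelihood test of edgeR, adjusted by the Benjamini-Hochberg method over the 16337 genes, none of the 8 was called at an adjusted p under 0.05, and neither was any other gene (0% of those tested), with an adjusted p of 0.9999 for each of the 8. At an unadjusted p under 0.05 there were 333 genes (2.04%), none of them of the 8. DESeq2's Wald test called 3 genes, edgeR's likelihood ratio test 2 and limma 0, none of them of the 8. DESeq2 gave no adjusted p for Pcp2, Ppp1r17 and Car8, so it could not have called these 3. An unadjusted p under 0.05 was found by DESeq2 for 1 of the 8, against 444 of the 26061 genes it fitted. The 3 genes without an adjusted p may also lack an unadjusted one, so this 1 may be out of fewer than 8. The likelihood ratio test of edgeR gave 4 of the 8 and 379 of all 16337 genes, and limma gave 0 and 422. The fitted log2 fold changes, Sgo1-/+ over WT, were -4.09 ± 1.74 (SE) for Pcp2, -3.64 ± 1.56 for Ppp1r17, -2.94 ± 1.57 for Car8, -1.62 ± 0.785 for Slc1a6 and -1.47 ± 0.8 for Fam107b. They were -0.68 ± 0.442 for Calb1, -0.64 ± 0.547 for Rgs8 and -0.26 ± 0.242 for Itpr1. Since the genes were chosen with this comparison known, nothing is read from these values.

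Without WT replicate 1, the direction of the fitted value turned for 7 of the 8 genes. The log2 fold changes were then 0.48 ± 0.654 for Pcp2, 0.17 ± 0.641 for Ppp1r17, 1.21 ± 0.573 for Car8, 0.36 ± 0.126 for Rgs8, 0.17 ± 0.239 for Fam107b, 0.016 ± 0.187 for Calb1 and 0.019 ± 0.146 for Itpr1. Slc1a6 alone stayed below 0, at -0.028 ± 0.222. The turned values of Pcp2, Ppp1r17, Fam107b, Calb1 and Itpr1 lay within 1 SE of 0. Since all 8 genes were highest in WT replicate 1, and were chosen with its values known, a rise without it was set in advance. The count of turned genes is therefore a description, and how many of all tested genes turned was not counted. The median over the 4 restricted genes moved from -3.29 to 0.32, and that over the 4 shared genes from -0.66 to 0.094, while the median over all tested genes was -0.00069 with the library and 0.0055 without it. None of the 8 was called without WT replicate 1, nor was any of the 16617 genes then tested (0%). At an unadjusted p under 0.05 there were 626 genes (3.77%) and 1 of the 8, Rgs8, whose edgeR p was 0.0218 before and 0.9995 after adjustment. Its 3 Sgo1-/+ libraries lay above both remaining WT libraries. How many of all genes were so separated without WT replicate 1 was not counted, so nothing is read from this order. Among the other Purkinje genes the median log2 fold change moved from -1.17 to -0.017 without the library, and in the list of Gq and calcium signalling it was 0.013 with and 0.038 without it.

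**Figure D5:**
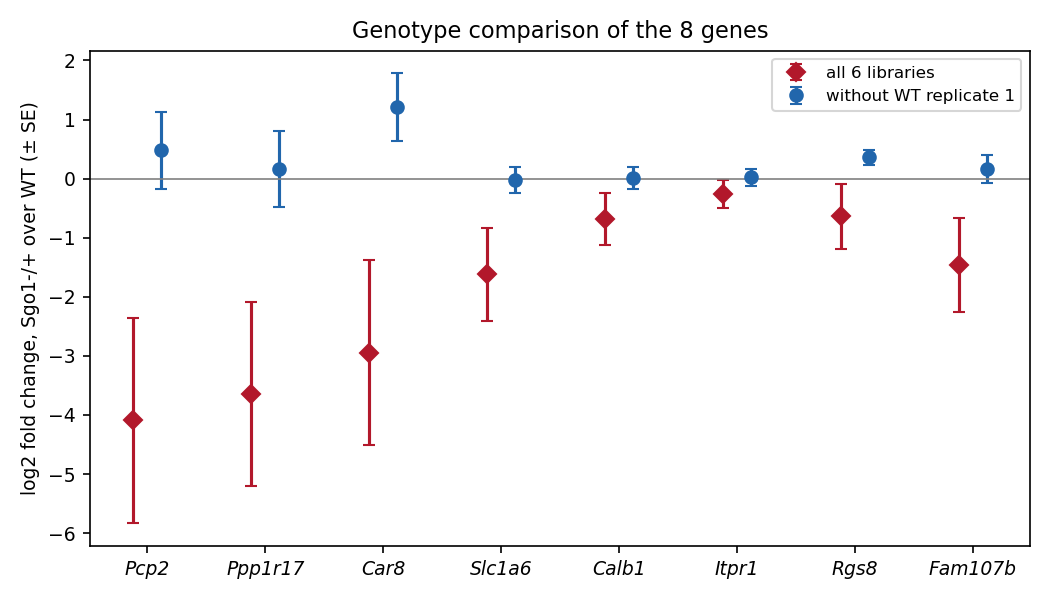
Fitted log2 fold change of Sgo1-/+ over WT for each gene (points, bars ± SE) with all 6 libraries (red) and without WT replicate 1 (blue). With the library the values run from -4.09 for Pcp2 to -0.26 for Itpr1, and without it from -0.028 for Slc1a6 to 1.21 for Car8.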

How the data were processed

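RNA-seq of brain RNA, labelled as cerebrum, of 3 WT and 3 Sgo1-/+ mice was used, although marker genes in WT replicate 1 went against this label. The other libraries were not uniform either. Genes of the olfactory bulb, which the methods leave out, summed to 1802 and 1422 normalized counts in WT replicates 2 and 3 and 99.4 to 818 in Sgo1-/+. Which tissue each library held was not tested. Per the study's methods, the authors aligned paired-end Illumina MiSeq reads to mm10 in Strand NGS. The values used are estimated counts as deposited by the authors, which the file heads as raw, for 38087 Ensembl genes in each library. The submitters' processing notes also name BWA and edgeR. Between 80.9 and 81.9% of the values above 0 were not whole. The annotation release and the strand setting used in counting are not given in the sources used here. The count columns name no genotype. They were assigned to WT and Sgo1-/+ from the file's header, whose fold change column equals the difference of the 2 group means so formed to within 2.9e-07, and to replicates by the number in the column name. The 6 columns of normalized values, and the 4 columns of the authors' own comparison, were not used.

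Counts were rounded and fitted with edgeR 4.0.16 (TMM, default filter on low counts, quasi-likelihood test, no covariates, Benjamini-Hochberg adjustment). The standard error is the log2 fold change divided by the square root of F. The script was tested on simulated data. Replicates were separate mice. Alternatives used DESeq2 1.42.0, limma 3.58.1, other scalings and filters, sex, the replicate number and each library left out. Positions and lengths are from GENCODE M21, which holds 36308 of the gene IDs, and all 95 listed genes were matched, 3 of them under older symbols. RefSeq start windows were found for 4 of the 8 genes, and that of Fam107b lies 99700 bases from the deposited start, so it is not shown.

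The 8 genes, their split and the lists were chosen with earlier results of these data known. All 8 were named. From the lists, up to 5 genes at least 4-fold above the next library (mean of at least 20 normalized counts) and up to 4 others for their role were named, with the 3 nearest profiles per gene. By this rule the hippocampal genes Dsp and C1ql2 were also named, which were highest in Sgo1-/+ replicate 3, at 198 and 178 normalized counts. Some genes that this rule names are not reported here.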

Additional observations from a re-analysis of the deposited data

How the results depend on the processing

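The number of genes called between the genotypes was 0 with edgeR's quasi-likelihood test, 3 with DESeq2's Wald test and 2 with edgeR's likelihood ratio test, and 0 to 1 when each library was left out in turn (1 without Sgo1-/+ replicate 2). The cause was not tested. It stayed at 0 under limma, DESeq2's size factors, both filters, sex as a covariate and the replicate block. Same-numbered WT and Sgo1-/+ samples did not deviate together (r from -0.207 to 0.014, against -0.229 to 0.295 for other numbers), and no sample was closest to its own number, so the numbers are not treated as pairs.

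When another library was left out, the median log2 ratio in WT replicate 1 was between 4.87 and 5.47 for the restricted genes. It was between 1.56 and 1.71 for the shared genes, and their difference between 3.16 and 3.82. Each moved by less than 1 SD over the other 5 libraries with other scalings, a pseudocount of 1 or the median of all 6 libraries. The same held with Rgs8 or Car8 moved to the other class. Slc1a6 and Fam107b, which met at the edge of the classes with log2 ratios of 2.89 and 2.84, were not moved. The fitted log2 fold changes of the 8 genes kept their sign in 48 of 48 refits with all libraries and turned in 7 of 48 that left out 1, all without WT replicate 1. Leaving out 1 library gave -4.67 to 0.48 for Pcp2, -4.23 to 0.17 for Ppp1r17, -3.51 to 1.21 for Car8, -2.04 to -0.028 for Slc1a6, -0.99 to 0.016 for Calb1, -0.44 to 0.019 for Itpr1, -0.99 to 0.36 for Rgs8 and -1.89 to 0.17 for Fam107b. The sizes depended on the fit, and with sex as a covariate Car8 was at -0.08 and Pcp2 at -1.38. Adjusted p-values of the 8 genes lay between 0.764 and 0.9999 over these refits, leaving out Pcp2, Ppp1r17 and Car8 under DESeq2, which gave them none. With 3 libraries a group, and 1 WT library that stood apart, the spread within WT limits what the comparison can show.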
